A study of Mus musculus with 6 samples.

Results

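The genes described here are 9 killer lectin receptor and innate-like marker genes, Klrg1, Klrk1, Klrd1, Klrc1, Klra4, Ncr1, Fcer1g, Tyrobp and Nkg7, chosen by name from a list and followed across the clusters and libraries of a single-cell RNA-sequencing study. All 9 were found among the 15601 genes of the deposited count table. The study compared CD8 T cells from tumours of male mice with those of female mice. Male and female wild-type C57BL/6 hosts (6 to 8 weeks of age per the labels) carried MB49, a urothelial carcinoma cell line, under the skin, after 500000 cells were injected at 6 weeks of age. Tumours of both sexes were taken on day 10, and live cells stained for CD3 and CD8 and lacking CD4 were sorted for 10x Genomics 3′ sequencing. The labels list 3 male and 3 female biological replicates, and the cell names carry 6 library numbers, 1, 3 and 4 in male cells and 2, 5 and 6 in female cells. MB49 is 1 cell line grown in 1 host strain. The p-values between the sexes measure the spread between these 6 libraries. Those between cells with and without a UMI of a gene measure the spread of a difference within libraries, 5 of them for Ncr1. The edgeR fits also share the estimate of spread over genes, so very small p-values do not rest on the libraries of that gene alone.

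Killer lectin-like receptors are surface receptors of natural killer (NK) cells that activated CD8 T cells also carry. Klrd1 encodes CD94, which pairs with NKG2A, the product of Klrc1, to form an inhibitory receptor for the non-classical class I molecule Qa-1. Klrk1 encodes NKG2D, an activating receptor for stress-induced ligands that signals through the adaptor of Hcst and, in mice, also through DAP12, the product of Tyrobp. Klra4 encodes Ly49D, an activating receptor that pairs with DAP12, Ncr1 encodes NKp46, which signals through the Fc receptor gamma chain of Fcer1g, and Klrg1 encodes an inhibitory receptor that marks terminal effector T cells. Nkg7 encodes a granule protein of cytotoxic lymphocytes.

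The files held 26698 cells in 11 deposited clusters, 16743 male and 9955 female, with 25562319 to 66105318 unique molecular identifiers (UMIs) per library and a median of 6398 to 10115 UMIs per cell. The same cell barcode stood under more than 1 library number for 84 barcodes, covering 169 cells, and leaving these cells out changed no call on the 9 genes. Cluster 2 held 3126 cells and was led by Klra6, Klra7, Klra9, Rbpms and Klra1, with Klrb1c, Fcer1g and Tyrobp also among its leading 10 genes. It is called by its number, because T cell genes were present beside these. Cd3d, a chain of the T cell receptor complex, averaged 928 ± 68 CPM (the share of a gene in the summed counts of a cluster in a library, scaled to a total of 1000000, with the SD over n = 6 libraries) in cluster 2 and was seen in 96.9% of its cells. Cd8b1 averaged 119 ± 43 CPM in cluster 2 against 794 ± 68 CPM in the mean of the other clusters, and Cd8a 237 ± 41 CPM against 749 ± 81 CPM. Cd4 and Foxp3 had 0 UMIs in cluster 2. Of the 12 myeloid genes listed, Csf1r and Adgre1 had 0 UMIs in cluster 2 and Lyz2 stood at 0.73 CPM. Cd68 was the highest there, at 6.28 CPM against 9.79 CPM in all other cells. S100a9 (2.87 against 2.86 CPM) and Fcgr1 (0.243 against 0.226 CPM) were not lower than outside, and the rest of the list was. By marker genes, cluster 7 was naive or central memory-like (Tcf7 and Ccr7 among its leading 10 genes). Cluster 2 was level with it in Tcf7 (342 ± 58 CPM against 333 ± 48 CPM in cluster 7) and ranked next to it in Ccr7 (90.0 against 232 CPM). Of the naive or central memory markers listed, 3 were highest in cluster 2 and 3 in cluster 7. Cluster 9 was interferon-stimulated-like and clusters 3 and 5 proliferating-like. Cluster 4 was led by cytokine genes such as Il2, Ccl3 and Ccl4 and called cytokine-producing activated-like. Clusters 0, 1, 6, 8 and 10 stay unnamed, and clusters 6 and 10 had the shallowest cells, with medians of 1742 and 1461 UMIs.

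The 9 genes lie on 3 chromosomes in the mm10 build (GRCm38). Klrd1 (chr6:129591782-129598775), Klrk1 (chr6:129610323-129623864), Klrc1 (chr6:129666015-129678973) and Klra4 (chr6:130043731-130067271) sit together in 475 kb of the NK gene complex, and Klrg1 (chr6:122270596-122282882) lies apart on the same chromosome. Fcer1g is on chromosome 1 (chr1:171229572-171234365), and Ncr1 (chr7:4337724-4345164), Tyrobp (chr7:30413760-30417585) and Nkg7 (chr7:43437073-43438249) are on chromosome 7. Tyrobp runs tail to tail with Hcst, the ends of the genes 126 bases apart, and none of the 9 genes overlaps another annotated gene. Of the 31-base words in the last 400 bases of the annotated transcripts of Klrc1, 74.9% also occur in Klrc2 or Klrc3, and 7.30% of those of Klra4 occur in other genes, chiefly a Klra pseudogene and Klra7. The counts of Klrc1 and Klra4 are therefore uncertain to that extent, since the counting could split or drop shared reads. None of the words of the other 7 genes was shared.

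Promoter windows of RefSeq (GRCm38.p6, 250 bases before to 50 after the annotated start) were found for 6 of the 9 genes. They are shown for 2 genes that were highest in cluster 2 and 2 that were lowest there or next to lowest, as the results below describe. Capitals mark matches on either strand to a RUNX motif (TGTGGT, found in 16.9% of 27025 promoter windows), a T-box motif (AGGTGTGA, 1.27%) and an ETS motif (CAGGAAG, 13%). No motif overlaps another in these windows.
Fcer1g (chr1:171234300-171234599, minus strand): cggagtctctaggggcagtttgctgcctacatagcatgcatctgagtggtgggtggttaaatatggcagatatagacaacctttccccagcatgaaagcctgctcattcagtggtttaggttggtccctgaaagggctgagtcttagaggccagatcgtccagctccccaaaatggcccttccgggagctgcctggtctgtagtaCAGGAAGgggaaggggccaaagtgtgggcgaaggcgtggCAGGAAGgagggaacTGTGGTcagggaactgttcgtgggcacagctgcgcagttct
Ncr1 (chr7:4337465-4337764, plus strand): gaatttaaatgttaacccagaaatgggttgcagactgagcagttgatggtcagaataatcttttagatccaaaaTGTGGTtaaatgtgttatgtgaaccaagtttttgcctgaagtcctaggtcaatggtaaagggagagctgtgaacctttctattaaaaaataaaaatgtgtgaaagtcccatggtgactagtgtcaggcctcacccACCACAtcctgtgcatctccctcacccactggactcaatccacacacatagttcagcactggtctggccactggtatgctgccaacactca
Klrk1 (chr6:129623815-129624114, minus strand): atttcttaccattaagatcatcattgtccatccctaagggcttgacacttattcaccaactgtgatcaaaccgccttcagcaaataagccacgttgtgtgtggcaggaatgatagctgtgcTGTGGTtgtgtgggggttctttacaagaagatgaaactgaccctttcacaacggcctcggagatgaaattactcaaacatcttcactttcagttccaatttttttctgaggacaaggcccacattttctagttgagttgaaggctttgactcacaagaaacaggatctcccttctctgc
Nkg7 (chr7:43436888-43437187, plus strand): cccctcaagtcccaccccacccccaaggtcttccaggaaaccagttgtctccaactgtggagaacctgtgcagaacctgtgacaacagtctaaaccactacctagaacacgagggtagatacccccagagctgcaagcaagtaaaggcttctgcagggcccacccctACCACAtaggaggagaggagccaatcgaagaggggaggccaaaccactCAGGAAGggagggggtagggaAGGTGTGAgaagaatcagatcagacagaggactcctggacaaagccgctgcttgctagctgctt
The RUNX letters occur in all 4 windows shown, the ETS letters in those of Fcer1g and Nkg7 and the T-box letters in that of Nkg7, so both kinds of gene hold the RUNX letters. The window of Klrc1 holds the RUNX letters once and that of Klra4 none of these motifs. A match is a description of letters and not a binding site.

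The 9 genes followed opposite patterns over the clusters. The adaptors Fcer1g and Tyrobp and the NK receptors Klra4 and Ncr1 were highest in cluster 2, while Klrd1, Klrk1, Klrc1, Nkg7 and Klrg1 were lower there than in the mean of the other clusters in 6 of 6 libraries. Over all 10632 genes compared in this way, 15.9% were higher in cluster 2 in 6 of 6 libraries and 36.1% lower. Because the clusters were made from the expression of these same cells, levels by cluster are given as a description with no test.

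Fcer1g stood at 302, 324 and 330 CPM in cluster 2 of the male libraries 1, 3 and 4 and at 436, 441 and 551 CPM in the female libraries 2, 5 and 6. The mean of the other clusters in the same libraries was 67.7, 49.3, 36.9, 26.8, 53.9 and 81.6 CPM. Every library was thus higher in cluster 2 than outside it, on average 7.54-fold (397 ± 96 CPM against 52.7 ± 19.9 CPM, SD, n = 6). Cluster 8, next in order, averaged 112 CPM and lay below cluster 2 by more than the spread over libraries, whereas clusters 8, 9, 10, 6 and 7, in that order, did not differ from one neighbour to the next beyond the spread. Clusters 0, 1 and 4 were lowest, at 12.8, 13.4 and 11.3 CPM. With each cell thinned to 1000 UMIs, 24.7% ± 3.0 of cluster 2 cells held a UMI of Fcer1g, against 0.873% to 7.53% in the other clusters. Unthinned, the shares were 60.4% in cluster 2, where cells had a median of 5936 UMIs, and 6.33% in cluster 0, where the median was 9163 UMIs.

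Tyrobp, the DAP12 adaptor, was at 70.5, 50.7 and 83.4 CPM in cluster 2 of male libraries 1, 3 and 4 and at 65.0, 152 and 208 CPM in female libraries 2, 5 and 6. Its mean outside was between 6.73 and 24.7 CPM, so cluster 2 was higher in each library, on average 7.59-fold. Thinned cells with a Tyrobp UMI were 5.61% ± 2.58 of cluster 2 and 0.217% to 1.68% of the other clusters. Hcst, the adaptor of NKG2D next to Tyrobp on the chromosome, was nearly level over the clusters, with 428 ± 27 CPM in cluster 2 and 374 ± 27 CPM in the others (1.15-fold).

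The rarest of the 9 genes, Klra4 and Ncr1, were also highest in cluster 2, but on few cells. Ncr1 had 245 UMIs in 65 cells of all 26698, and 39 of these cells and 51.4% of the UMIs were in cluster 2. In cluster 2, 13, 3 and 6 cells of male libraries 1, 3 and 4 held a Ncr1 UMI, and 0, 5 and 12 cells of female libraries 2, 5 and 6. The 0 of 208 cells in female library 2 allows a share of up to 1.44%, counting error alone. Klra4 had 538 UMIs in 141 cells, of which 30 cells were in cluster 2, and 13 of those 30 came from female library 6 with 154 of the 265 UMIs. The mean level in cluster 2 was 21.9 ± 33.7 CPM for Klra4 and 9.35 ± 12.1 CPM for Ncr1, against 1.73 ± 1.59 and 0.941 ± 0.690 CPM in the mean of the other clusters. The SD exceeded the mean for both genes in cluster 2, and neither lay above the next cluster by more than the spread over libraries.

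**Figure D1:**
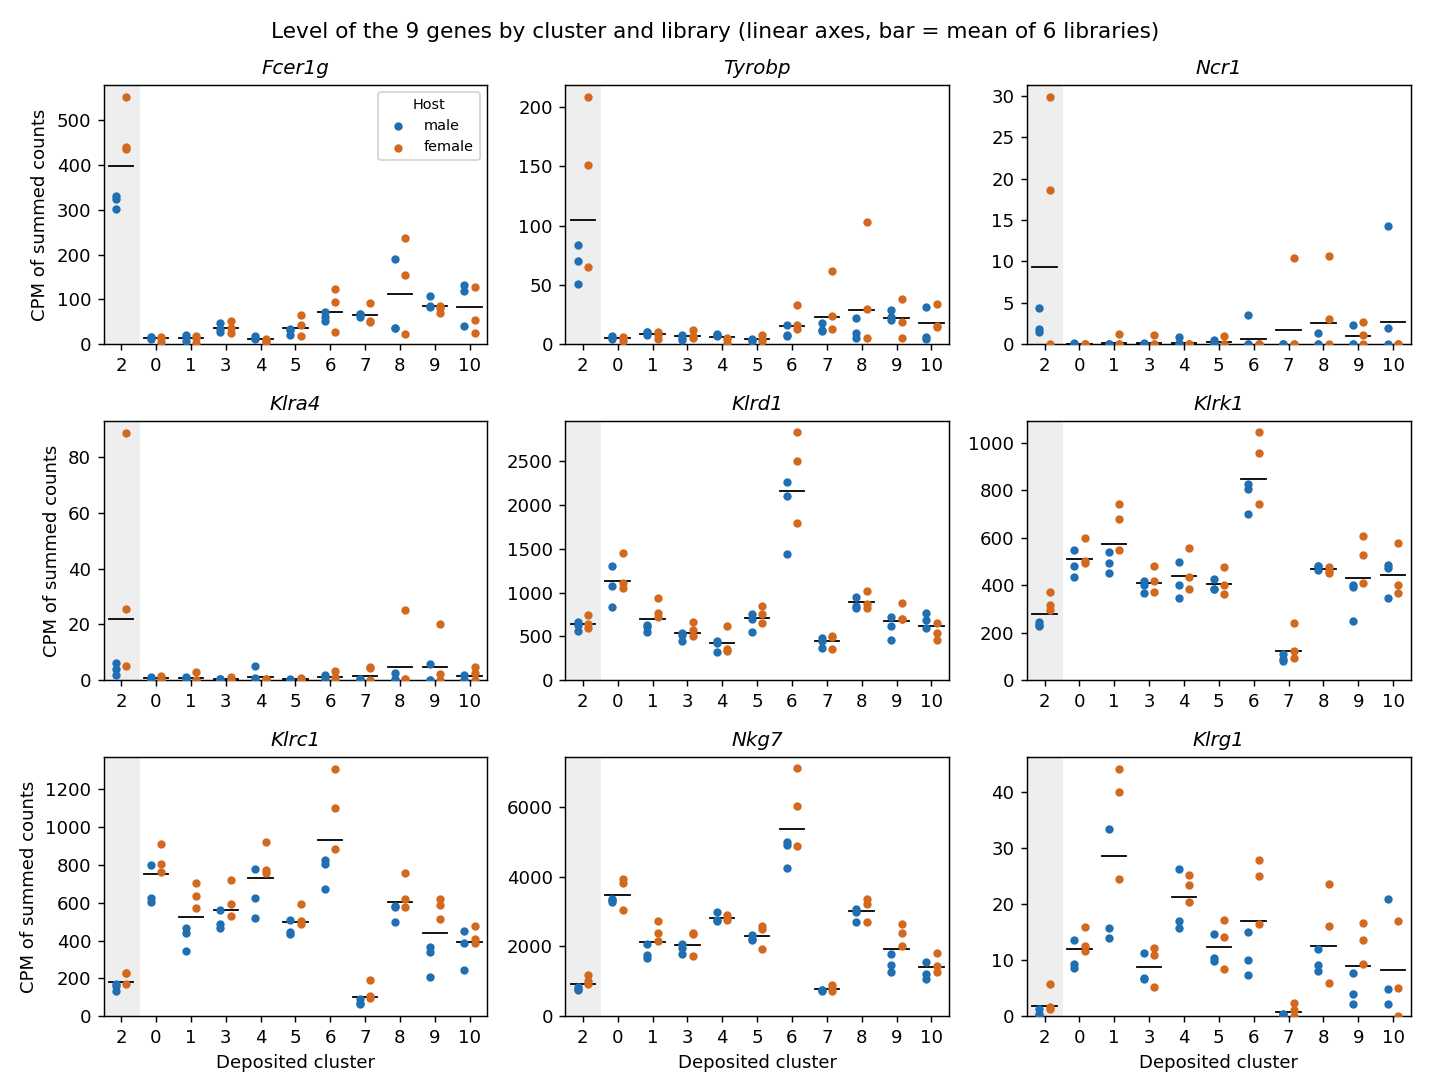
Level of the 9 genes (CPM of summed counts, linear axes) in cluster 2 (shaded) and the other 10 deposited clusters; points are libraries, male left and female right, and bars are means of 6 libraries. Fcer1g averages 397 CPM in cluster 2 and at most 112 CPM in another cluster, while Klrd1, Klrk1, Klrc1 and Nkg7 peak in cluster 6 and Klrg1 in cluster 1.

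The other killer lectin-like receptor genes of the table differed among themselves. Klra6 (12-fold), Klra9 (11.9-fold), Klra7 (10.7-fold), Klra1 (9.90-fold) and Klrb1c, the NK1.1 gene (8.48-fold), were higher in cluster 2 in 6 of 6 libraries. Klre1 was 1.41-fold higher, also in 6 of 6 libraries. Klrc2, the activating partner of CD94, was lower in cluster 2, with 106 ± 7 CPM there against 144 ± 19 CPM, and in 6 of 6 libraries. Summed over the 21 genes of the family that are in the table and are not among the 9, cluster 2 held 1227 to 1576 CPM per library and all other cells together 273 to 410 CPM.

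The CD94, NKG2A and NKG2D genes were lower in cluster 2 than in the mean of the other clusters. Klrc1 averaged 181 ± 40 CPM in cluster 2 and 553 ± 104 CPM in the mean of the others, a 3.06-fold lower level. Library by library, cluster 2 had 131, 168 and 158 CPM of Klrc1 in male libraries 1, 3 and 4 and 229, 229 and 172 CPM in female libraries 2, 5 and 6, all under the lowest level outside, 417 CPM. Klrk1 averaged 280 ± 56 CPM in cluster 2 and 464 ± 66 CPM outside (1.66-fold lower). Klrd1 was closest to level, with 640 ± 61 CPM against 830 ± 130 CPM (1.30-fold lower). Without the shallow clusters 6 and 10 the log2 ratio of Klrd1, −0.37, became −0.10. Only cluster 7, the naive or central memory-like one, was lower than cluster 2 in Klrc1 (104 CPM) and Klrk1 (123 CPM), in 6 of 6 libraries and beyond the spread. For Klrd1, clusters 3, 4, 7 and 10 had lower means than cluster 2, cluster 10 by less than the spread over libraries and in only 4 of 6 libraries.

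All 3 genes, and Nkg7, were highest in cluster 6. That cluster was also highest in the exhaustion-associated genes Pdcd1 (1021 ± 128 CPM), Havcr2 (965 ± 150 CPM) and Lag3 (1551 ± 487 CPM). Tox, another such gene, was highest in cluster 0 (53.2 CPM) and ranked 4 in cluster 6 (39.2 CPM). Cd3d, Cd3e, Cd8a, Cd8b1, Gzma and Gzmb were highest in cluster 6 as well, so a peak there was not particular to exhaustion-associated genes. Cluster 6 had 2158 CPM of Klrd1, 845 of Klrk1, 933 of Klrc1 and 5355 of Nkg7. The step to the next cluster, cluster 0 for Klrd1 (1139 CPM) and Nkg7 (3460 CPM) and cluster 1 for Klrk1 (575 CPM), exceeded the spread over libraries, while that of Klrc1 to cluster 0 (751 CPM) did not, although it held in 6 of 6 libraries. The median cell of cluster 6 held 1742 UMIs, and the part of depth in these levels was not tested. Nkg7 averaged 917 ± 164 CPM in cluster 2, with 840, 745 and 794 CPM in male libraries 1, 3 and 4 and 1004, 1194 and 927 CPM in female libraries 2, 5 and 6. Its mean of the other clusters was 2520 ± 304 CPM, and cluster 7, at 776 CPM, was the only cluster lower than cluster 2, in 6 of 6 libraries but by less than the spread over libraries.

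Klrg1 was near absent from cluster 2, which held 22 of its 3521 UMIs, 0.62%. It was at 0.372, 0.250 and 1.31 CPM in male libraries 1, 3 and 4 and at 1.30, 5.72 and 1.72 CPM in female libraries 2, 5 and 6, against a mean of 8.60 to 18 CPM over the other clusters. All 6 libraries were lower in cluster 2. Cluster 1, led by Rap1gap2, Gzmm, Cxcr3 and Ccl5 among others, was highest with 28.6 ± 12.5 CPM and cluster 4 next with 21.3 ± 4.3 CPM, a gap within the spread over libraries. Cluster 7 was lowest, with 0.681 ± 0.894 CPM and 6 UMIs in 1752 cells. After thinning to 1000 UMIs, 2.76% of cluster 1 cells and 0.080% of cluster 2 cells held a Klrg1 UMI, so most cells of every cluster had none at this depth.

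**Figure D2:**
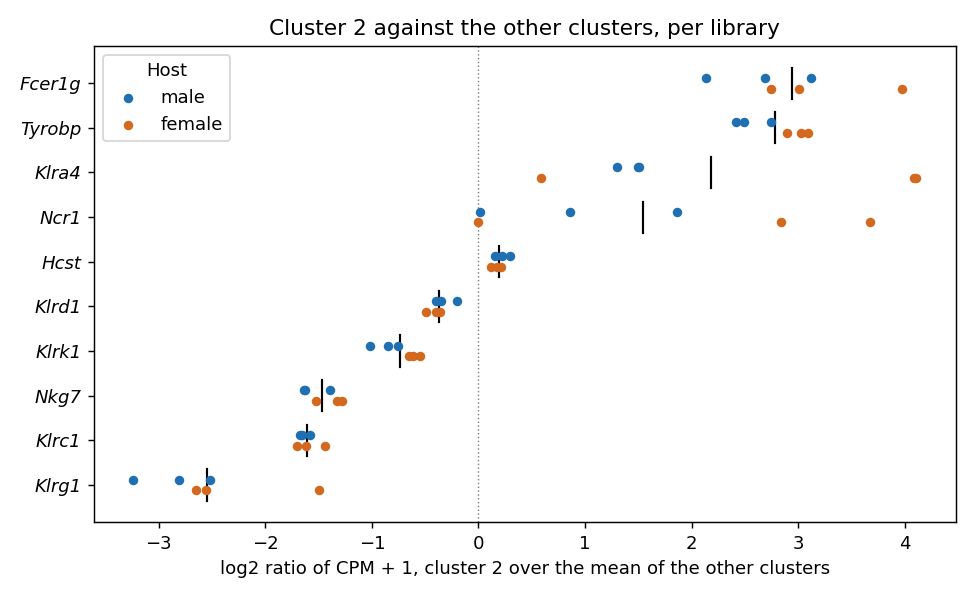
Log2 ratio of cluster 2 over the mean of the other clusters (CPM + 1) for the 9 genes and the adaptor gene Hcst; points are libraries, male above and female below, and bars are means of 6 libraries. Fcer1g, Tyrobp and Klra4 lie above 0 in 6 of 6 libraries and Ncr1 in 5 of 6, while Klrd1, Klrk1, Nkg7, Klrc1 and Klrg1 lie below 0 in each.

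Across the 66 sums of a library and a cluster, the genes fell into the same sets. The Pearson correlation of log2(CPM + 1) was 0.92 between Klrc1 and Nkg7, 0.91 between Klrk1 and Klrc1 and 0.79 between Fcer1g and Tyrobp, but −0.50 between Klrc1 and Fcer1g and 0.19 between Tyrobp and its neighbour Hcst. Klrd1, the partner chain of NKG2A, correlated with Klrc1 at 0.53. The sums share libraries and cell depth, so these values are descriptions. Over 8615 genes, the genes most like Klrc1 were Cxcr6 (0.94), Pdcd1 (0.92) and Havcr2 (0.92), and those most like Klrk1 were Fasl (0.93), Cxcr6 (0.89) and Gzmk (0.89). Nkg7 was most like Ndfip2 (0.95), Klrd1 like Tmem50a and Cd3d (0.90 each) and Klrg1 like Lat (0.82), Gzmk (0.81) and Ccr2 (0.81). Fcer1g was most like Ikzf2, the Helios gene (0.85), and Klrb1c (0.78), and Tyrobp like Klrb1c (0.75). The likest genes of Klra4 (Klrb1c, 0.54) and Ncr1 (Arap3, 0.58) were less close.

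Within single cells thinned to 3000 UMIs, receptor and partner genes were seen together to different extents. In cluster 2, 19.6% of the 1346 cells with a Fcer1g UMI also held one of Tyrobp, against 5.22% of those without, and outside cluster 2 the shares were 9.55% and 1.33%. Klrd1 and Klrc1 showed no such difference in cluster 2, where 27.3% of cells with Klrd1 and 29.0% of cells without it held a Klrc1 UMI. Outside cluster 2, pooled over clusters of different levels, 72.8% of Klrd1-positive cells and 62.5% of the others held Klrc1. Within cluster 0 alone these shares were 85.2% and 85.7%, and within cluster 7 17.1% and 14.1%. The part of the cluster mix in the pooled difference was not tested. Cells with both chains of the inhibitory receptor were 20.3% of cluster 2 and 54.7% of the other cells. Hcst was held by 73.6% of the Klrk1-positive cells of cluster 2 and 66.4% of its Klrk1-negative cells. A cell without a UMI at this depth may still express the gene.

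The cells of cluster 2 with a Fcer1g UMI were next compared with those without, a comparison added after the data were seen, on counts of cells thinned to 3000 UMIs and summed per library. The Fcer1g-positive cells were higher in Tyrobp, in most other killer lectin receptor genes tested and in Xcl1, and lower in Ccr7 and Cd8b1. Tyrobp was at 119, 86.0 and 143 CPM in Fcer1g-positive cells of male libraries 1, 3 and 4 and at 91.2, 180 and 253 CPM in those of female libraries 2, 5 and 6, against 30.9, 8.7, 17.5, 14.7, 36.4 and 31.7 CPM in the Fcer1g-negative cells of the same libraries. The sets do not overlap, and the log2 fold change was 2.43 (SE 0.13, adjusted p = 1.27e-55, edgeR's quasi-likelihood test with library as a block and Benjamini-Hochberg adjustment). Of 5152 genes tested, 278 (5.4%) passed an adjusted p of 0.05, 112 higher (2.17%) and 166 lower (3.22%) in the positive cells. Among the 9 genes, 5 could be tested, and 4 of them rose, namely Tyrobp, Klrk1 (0.64, adjusted p = 1.27e-15, edgeR), Klrc1 (0.41) and Nkg7 (0.27). Klrd1 averaged 661 ± 71 CPM in positive and 569 ± 46 CPM in negative cells and did not pass (0.12, adjusted p = 0.215, edgeR), but was called with unthinned counts (0.24). Klra4 and Ncr1 fell under the filter on low counts, with means of 32.6 and 13.2 CPM in the positive and 0.783 and 3.17 CPM in the negative cells.

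Of the other killer lectin-like receptor genes, 9 were tested in that comparison and 7 rose in Fcer1g-positive cells, led by Klrb1c (1.44) and Klra5 (1.14) and with Klra7 (0.58), Klra1 (0.61) and Klre1 (0.57) among them, and none fell. The median of the 9 was 0.57 on the log2 scale, beside −0.01 over all genes tested. Fgl2 (1.56), Lat2 (1.30), an adaptor of the LAT family, Xcl1, a chemokine of NK and CD8 T cells (1.13), Atp1b1 (1.13) and Capg (0.96) also rose, each higher in 6 of 6 libraries. Fgl2 and Klra5 averaged 17.6 and 15.5 CPM in the negative cells and passed the filter on low counts only with the positive cells. Their direction in 6 of 6 libraries is therefore no support. Tyrobp, too, passed that filter only with the positive cells. Ccr7, the lymph node homing receptor (−1.48), Fam169b (−1.20), Ramp3 (−1.18), the heat shock genes Hspa1a (−1.17) and Hspa1b (−0.77), Cd8b1 (−1.15), Patz1 (−0.78) and Themis (−0.66) fell, each lower in 6 of 6. Of the 10 T cell receptor and CD8 chain genes tested, 3 fell (Cd8b1, Cd5 and Cd6) and 1 rose (Cd3g, 0.16), while Cd3d averaged 906 CPM in positive and 924 CPM in negative cells (−0.06, not called). Patz1 and Themis lost their calls without some single libraries. With DESeq2 the count of called genes was 108 and with unthinned counts 665.

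Cells with a UMI of Ncr1 stood further apart from the rest of cluster 2. After thinning there were 26 of them, 3 to 10 per library in 5 libraries, against 2725 Ncr1-negative cells. They were higher in granzyme genes, in Tyrobp and Fcer1g and in Klra4. Tyrobp was at 1467, 778 and 1667 CPM in Ncr1-positive cells of male libraries 1, 3 and 4 and at 1833 and 1500 CPM in those of female libraries 5 and 6, against 62.6, 39.2, 65.7, 70.3 and 95.4 CPM in the Ncr1-negative cells. Every positive sum lay above every negative one, with a log2 fold change of 3.91 (SE 0.27, adjusted p = 7.32e-43, edgeR). Of 3664 genes tested 223 (6.09%) were called, 30 higher (0.819%) and 193 lower (5.27%). Of the 7 tested among the 9 genes, 5 rose, namely Tyrobp, Klra4 (4.85, higher in 4 of 5 libraries), Fcer1g (1.68), Nkg7 (1.09) and Klrk1 (0.99, 4 of 5 libraries). Klra4, at 6.68 CPM in the Ncr1-negative cells of cluster 2 unthinned, passed the filter on low counts mainly through the positive cells. Klrc1 (0.34) and Klrd1 (0.24) did not pass, although Klrd1 was higher in 5 of 5 libraries by CPM (1033 ± 221 against 605 ± 55). The median log2 fold change over all genes tested was −0.40, which sets the level that these values are read against.

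Gzma (4.0, 6202 ± 4684 against 259 ± 178 CPM), Gzmb (2.01) and Gzmc (2.99), 3 of the 10 cytotoxic granule genes tested, were called higher in Ncr1-positive cells. None of the 10 was called lower, although 5 lay below 0 on the log2 scale. Klrb1f (4.13), the transcription factor gene Irf8 (3.38), Cd244 (2.74) and Ccr2 (2.68) rose too, each in 5 of 5 libraries. Klrb1f, Gzmc, Cd244 and Ccr2 averaged 3.74, 10.1, 14.6 and 25.5 CPM in the negative cells. They passed the filter on low counts only through the positive cells, so their direction in 5 of 5 libraries was set by the filter and is no support. Among the lower genes, 24 had 0 UMIs in the positive cells, and against a floor of 3 UMIs over the group Bcl11b, a transcription factor of the T lineage, was at least 3.08-fold lower, Pik3ip1 at least 3.07-fold and Slamf6 at least 2.48-fold. Cd3d fell by 1.09, with 636 CPM in positive and 933 CPM in negative cells, and was lower in 5 of 5 libraries. Tcf7 fell by 2.17 and Klra6 by 2.05. Unthinned, each of the 39 cells of cluster 2 with an Ncr1 UMI also held one of Fcer1g, 36 held Tyrobp, 38 Klrk1 and 12 Klra4. These cells had a median of 8141 UMIs against 5911 in the Ncr1-negative cells, and 212 UMIs of Cd3d (615 CPM against 927 CPM). With as few as 3 cells in a library, single values are coarse. The call on Klrk1 was lost without male library 1 or 4 or female library 5 or 6, and that on Gzmc without female library 5. With unthinned counts Gzma was at 3.56 and not called (adjusted p = 0.0601, edgeR), and Klrd1 was called (0.48).

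**Figure D3:**
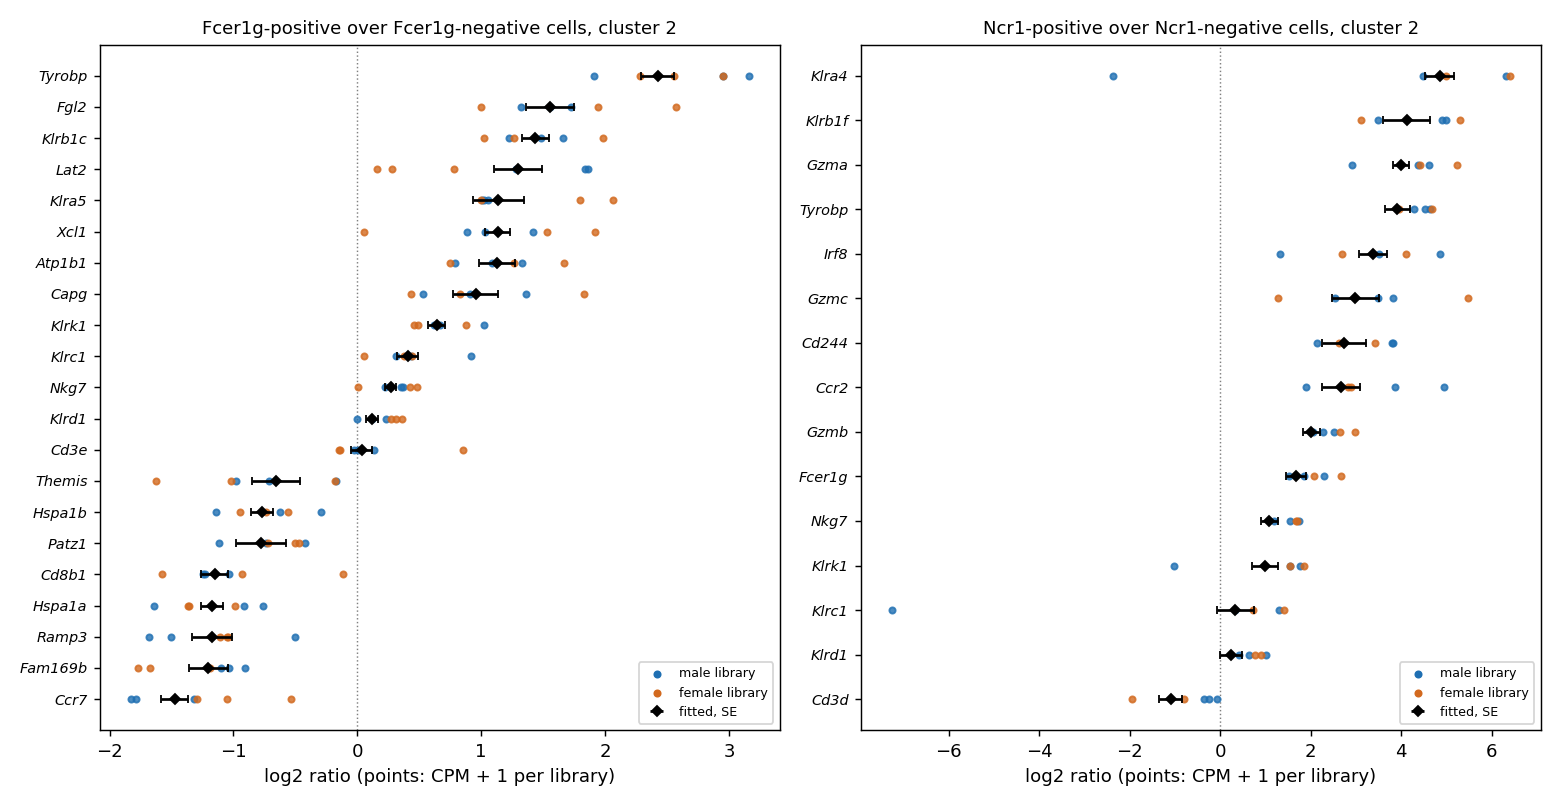
Log2 ratios in cluster 2 of cells with a UMI of Fcer1g over those without (left) and of cells with a UMI of Ncr1 over those without (right), cells thinned to 3000 UMIs; points are libraries (CPM + 1) and diamonds the edgeR estimate with its standard error. Tyrobp lies at 2.43 on the left and 3.91 on the right, and Klrd1, which did not pass in either comparison, lies at 0.12 on the left and 0.24 on the right.

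Outside cluster 2, cells with a Klrg1 UMI were compared with those without, 792 against 19153 cells after thinning. Klrg1-positive cells were higher in Gzma, Ccr2, Ccl5 and Cx3cr1 and lower in the naive and memory genes Ccr7 and Tcf7. Of 8902 genes tested 426 (4.79%) were called, 203 higher (2.28%) and 223 lower (2.51%). Of the 9 genes, 6 could be tested, and Klrk1 alone passed, with 547 ± 97 CPM in positive and 455 ± 67 CPM in negative cells (0.23, SE 0.07, adjusted p = 0.0282, edgeR, higher in 5 of 6 libraries). That call did not hold under DESeq2 (adjusted p = 0.129), without male libraries 1, 3 or 4 or female library 5 (0.0568 to 0.263), or within cluster 1 (0.758), and with unthinned counts the value was −0.05. Nkg7 (0.14), Klrc1 (0.07), Klrd1 (−0.16) and Fcer1g (−0.21) did not pass. Klrd1 was called lower with unthinned counts (−0.22) and without clusters 6 and 10 (−0.19), and Nkg7 was called higher within cluster 1 (0.29, adjusted p = 0.0101, edgeR). Tyrobp stood at 34.0 ± 49.5 CPM in positive and 7.80 ± 2.10 CPM in negative cells (1.63, not called), with 133 CPM in the positive cells of female library 6. It was called without male library 3 (1.83, adjusted p = 0.00872, edgeR), female library 5 (1.80, 1.78e-06) or female library 6 (1.07, 0.0121).

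Ccr2, a chemokine receptor, averaged 361 ± 45 CPM in Klrg1-positive and 163 ± 38 CPM in Klrg1-negative cells (1.12, SE 0.08, adjusted p = 3.64e-25, edgeR), and Ccl5 11540 ± 2512 against 5707 ± 422 CPM (0.93). Gzma (1.57), Itgax (1.23), Dock5 (1.19), H2-Q10 (1.07), Cx3cr1, a receptor of terminal effector cells (1.01), and Runx1 (0.90) rose as well. The call on Gzma (3202 ± 890 against 1114 ± 533 CPM) held only without female library 2 among the 6 settings that left out 1 library. Il2 (−2.56), Ccr7 (−1.62), Rgs10 (−1.33), Tcf7 (−1.27), Nrp1 (−1.19), Ramp3 (−1.18) and Rtp4 (−1.14) fell. Each of these genes had 1 direction in 6 of 6 libraries, and with unthinned counts Il2 was at −0.65 and not called (adjusted p = 0.403, edgeR). The cells with Klrg1 lie unevenly over the clusters, and within cluster 1 alone 210 genes were called. There Gzma (1.68), Cx3cr1 (1.90), Ccl5 (0.81), Ccr2 (0.47), Tcf7 (−1.17) and Rgs10 (−1.95) were called in the same direction, while Itgax, Runx1, Nrp1 and Rtp4 were not called, and Ccr7 and Il2 could not be tested.

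Of the listed groups, 5 of 21 cytotoxic granule genes were called higher in Klrg1-positive cells (Gzma, Gzmm 1.24, Gzmk 0.84, Fasl 0.57, Srgn 0.26). None was called lower, although 4 lay below 0, and the median of the 21 was 0.26 beside −0.01 over all genes tested. Of 18 effector and memory genes, 7 rose, among them Zeb2 (0.83) and Itga4 (0.76), and 6 fell, among them Id3 (−2.34), Bcl2 (−0.79) and Il7r (−0.60). Of 14 exhaustion genes tested, Nr4a2 (0.56) rose and Lag3 (−0.55) and Nrn1 (−2.60) fell.

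**Figure D4:**
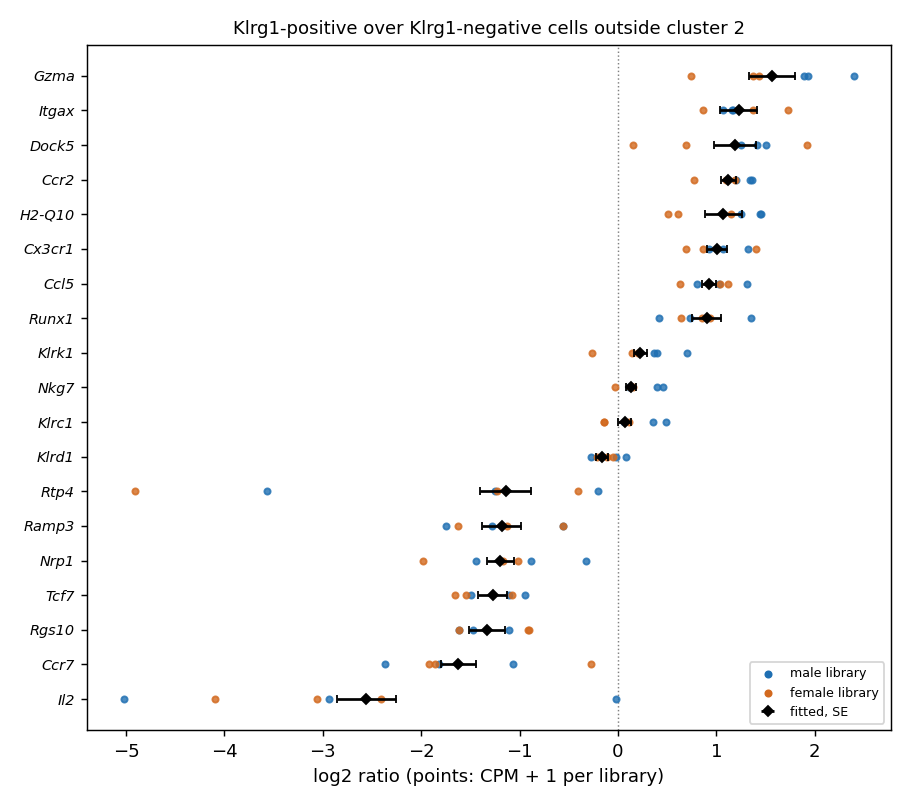
Log2 ratios of Klrg1-positive over Klrg1-negative cells outside cluster 2, cells thinned to 3000 UMIs; points are libraries (CPM + 1) and diamonds the edgeR estimate with its standard error. Of the genes shown, Gzma is highest at 1.57 and Il2 lowest at −2.56, while Klrk1, Nkg7, Klrc1 and Klrd1 lie between −0.16 and 0.23.

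Male and female hosts were compared over summed counts per library, first over all cells. None of the 9 genes passed edgeR's quasi-likelihood test, where 12 of 12310 genes did (0.0975%). At an unadjusted p under 0.05 there were 2 of the 9, where the share over all genes was 10.6%, and none of the 9 passed under DESeq2 or limma-voom. Klrg1 was at 7.80, 11.2 and 10.8 CPM in male libraries 1, 3 and 4 and at 11.7, 16.7 and 14.8 CPM in female libraries 2, 5 and 6 (−0.53, male minus female on the log2 scale, SE 0.17, adjusted p = 0.335, edgeR). Klrc1 was at 392, 526 and 474 CPM in males and at 732, 628 and 555 CPM in females (−0.46, SE 0.15, adjusted p = 0.359, edgeR). These 2 genes had all male libraries below all female ones, as 8.23% of the genes tested did. The fold change was below 0 for 8 of the 9 genes, against 50.1% of all genes tested. Fcer1g was the exception at 0.03, where the male mean was 62.4 ± 19.4 CPM and the female mean 63.0 ± 34.3 CPM. Cluster 2, the richest in Fcer1g, made up 19.1%, 15.3% and 10.51% of male libraries 1, 3 and 4 and 7.19%, 4.41% and 11.4% of female libraries 2, 5 and 6 (means 15% ± 4.3 and 7.66% ± 3.50, exact two-sided permutation test, p = 0.2, with 0.1 the smallest p that 3 against 3 allows). When each library was given equal cluster proportions, the value of Fcer1g was −0.33, not called.

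Outside cluster 2 the 9 genes gave the same picture, with none called by edgeR, DESeq2 or limma-voom, where edgeR called 11 of 12194 genes (0.0902%). The fold change was below 0 for all 9, from −1.83 for Ncr1 to −0.19 for Klrk1, where 48.8% of all genes tested lay below 0. An unadjusted p under 0.05 was found for 2 of the 9 and for 8.36% of all genes. Klrc1 had 497 ± 66 CPM in male and 658 ± 86 CPM in female cells outside cluster 2 and was the 1 gene of the 9 whose libraries did not overlap, as 6.09% of all genes tested were in that direction.

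Within cluster 2, Fcer1g was lower in male than in female cells. It averaged 318 ± 15 CPM in males and 476 ± 65 CPM in females (n = 3 each, values per library above), with a log2 difference of −0.50 (SE 0.11, adjusted p = 0.0211, edgeR), where 32 of 8935 genes were called (0.358%), 0.28% of those tested being lower in males. The lowest female library, at 436 CPM, lay above the highest male one, at 330 CPM. The call also held under DESeq2 (adjusted p = 0.00841) and limma-voom (0.033), and was lost without male library 1, 3 or 4 or female library 6, with adjusted p from 0.0604 to 0.321 and values from −0.53 to −0.41. The summed level of 12 myeloid markers in cluster 2 was 9.56 to 14.7 CPM in male and 17.2 to 48.1 CPM in female libraries, with Csf1r and Adgre1 at 0. Of 5 mast cell or basophil markers 2 were in the table, and their sum was 9.19 to 11.02 CPM in male and 16.3 to 19.5 CPM in female libraries, from 239 UMIs of Kit and 1 of Mcpt8 in cluster 2. The sum of the cytotoxic granule genes without Nkg7 was 2054 to 2525 CPM in male and 3684 to 3913 CPM in female libraries, and that of 12 NK markers without the 9 genes was 1352 to 1669 CPM in male and 1779 to 2769 CPM in female libraries. The part of these in the result was not tested.

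Klrg1 was too low in cluster 2 for the test, and the other 7 tested genes of the 9 also had values below 0 there without being called. Klrk1 was at 227, 231 and 244 CPM in male libraries 1, 3 and 4 and at 315, 370 and 293 CPM in female libraries 2, 5 and 6 (−0.40, adjusted p = 0.131, edgeR), Klrc1 had a value of −0.39 and Nkg7 of −0.31. These 3 and Fcer1g, 4 of the 8 tested, had all male libraries below all female ones, against 9.51% of all genes tested. Klrd1 averaged 621 ± 50 CPM in males and 658 ± 75 CPM in females (−0.01). Tyrobp averaged 68.2 ± 16.4 CPM in males and 142 ± 72 CPM in females (−0.97, adjusted p = 0.818, edgeR), with female library 2, at 65.0 CPM, among the male values. Klra4 (4.13 ± 2.15 CPM in males and 39.6 ± 43.5 CPM in females) and Ncr1 (2.56 ± 1.55 and 16.1 ± 15.1 CPM in males and females) passed the filter on low counts and were not called. Their female libraries 2, 5 and 6 were uneven, at 25.4, 5.00 and 88.4 CPM for Klra4 and 0, 18.6 and 29.9 CPM for Ncr1. Without female library 6, Klrk1 and Klrc1 were called, and without female library 2, Tyrobp and Ncr1 were.

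In cluster 2, other genes tied to these receptors were also called between the sexes. Among 20 adaptor and kinase genes tested 1 was, Lat2, lower in males (26.4 ± 6.2 against 45.7 ± 7.2 CPM, −0.75). Id2, a transcription factor of innate and effector lymphocytes, was at 198 ± 26 CPM in males and 329 ± 41 CPM in females (−0.66) and Zeb2 at 12.3 ± 1.8 and 24.8 ± 5.9 CPM (−0.89), the 2 called of 16 transcription factor genes. Cd244 fell by 0.88 and Ly6c2 rose by 0.48 in males, and none of the 14 other killer lectin-like receptor genes tested was called.

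**Figure D5:**
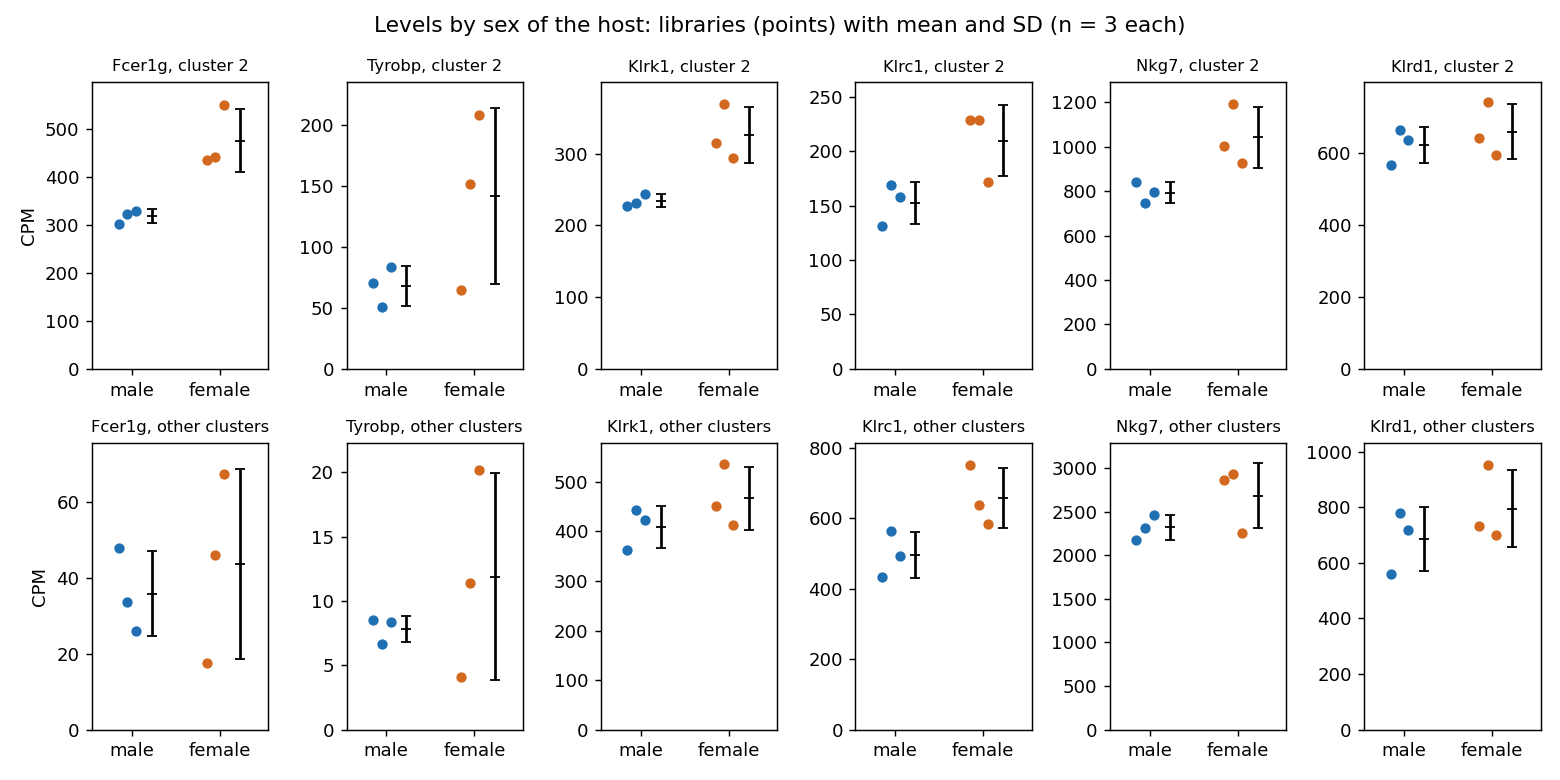
Level (CPM) of 6 of the genes in male (left) and female (right) libraries, in cluster 2 (upper row) and in the other clusters together (lower row); points are libraries, with the mean and SD beside them (n = 3 each). In cluster 2 Fcer1g averages 318 CPM in males and 476 CPM in females without overlap, whereas outside cluster 2 its libraries overlap.

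Whether the difference between the sexes was itself larger in cluster 2 than in the other cells was tested on both sums of each library with library as a block. None of the 9 genes was called by edgeR or by DESeq2, with 14 of 11584 genes called by edgeR (0.121%). At an unadjusted p under 0.05, where 7.09% of all genes lay, were Klrk1, Klrd1 and Tyrobp, and also Klrg1 and Klra4. Nothing is read from this count, since Klrg1 had 22 UMIs in cluster 2 and 154 of the 265 UMIs of Klra4 there came from female library 6. The difference of differences was −0.31 for Fcer1g (SE 0.55, adjusted p = 0.965, edgeR), −0.42 for Tyrobp and 0.23 for Klrd1. The call of Fcer1g in cluster 2 and its absence elsewhere therefore do not show that the effect differs between them.

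In the other 10 clusters, fitted one by one, 5 member and cluster pairs were called, all lower in males. Cluster 1 held 2 of them, where 3.8% of 9234 genes were called and 2.2% were called lower in males. Klrc1 was at 345, 467 and 438 CPM in males and 704, 636 and 573 CPM in females of libraries 1, 3, 4 and 2, 5, 6 (−0.59, adjusted p = 0.0113, edgeR), and Klrd1 averaged 597 ± 43 CPM in males and 811 ± 117 CPM in females (−0.41, adjusted p = 0.0377, edgeR). The libraries of the sexes did not overlap for either gene, as for 12.9% of all genes in that direction. Klrk1 (−0.39, adjusted p = 0.071, edgeR) and Nkg7 (−0.37, adjusted p = 0.0535, edgeR) did not pass there. Nkg7 was called by DESeq2 (adjusted p = 0.047) and without male library 4 or female library 6, and Klrk1 without female library 6. In cluster 9, the interferon-stimulated-like one, 3.41% of 8030 genes were called, 2.29% lower in males, and 13.5% had all male libraries below all female ones. Nkg7 averaged 1510 ± 262 CPM in males and 2338 ± 310 CPM in females (−0.58, adjusted p = 0.00937, edgeR), Klrc1 303 ± 85 and 574 ± 55 CPM (−0.86, adjusted p = 0.0122, edgeR) and Klrg1 4.68 ± 2.80 and 13.1 ± 3.6 CPM on 72 UMIs (−1.42, adjusted p = 0.0416, edgeR).

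None of these 5 calls held in every fit that left out 1 library. Klrc1 in cluster 9 was lost without female library 5 and in cluster 1 without male library 1 or female library 5, while Klrd1 in cluster 1, Klrg1 in cluster 9 and Nkg7 in cluster 9 were each lost in 3 or 4 of the 6. In the remaining 8 clusters none of the 9 genes was called by edgeR. An unadjusted p under 0.05 was found in 8 of 53 tests, a larger share than the 4.81% over all gene and cluster tests there. These 53 tests share libraries, and the count itself was not tested. Few genes of any kind were called there, 0.139% of those tested in cluster 0, 0.142% in cluster 3, 0.105% in cluster 4, 0.0979% in cluster 5, 0.181% in cluster 6, 0.168% in cluster 7, 0.0968% in cluster 8 and 0.274% in cluster 10. DESeq2 called 5 pairs over the 10 clusters, Klrd1, Klrc1 and Nkg7 in cluster 1 and Klrc1 and Nkg7 in cluster 9, and 0.675% of all gene and cluster tests. It gave no adjusted p for Klrg1 in cluster 9. Shares of cells with a UMI, thinned to 1000 UMIs, were compared for the 9 genes in and outside cluster 2. Fcer1g-positive cells were 22.4% ± 2.2 of male and 27.0% ± 1.1 of female cluster 2 cells, and Klrc1-positive cells 35.8% ± 4.1 of male and 47.3% ± 4.0 of female cells outside cluster 2. Both differences had p = 0.1 in exact two-sided permutation tests, the smallest this design allows, and 0.72 after adjustment over the 18 comparisons.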

How the data were processed

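The authors deposited a table of UMI counts per gene and cell for all cells, and a table with the sex, library and cluster of each cell. Cell Ranger, Seurat and the mm10 build are named, without versions, per the submitters' processing notes, and the clusters are the deposited ones. No doublet caller was run, and how doublets were treated upstream is not given in the sources used here. No cell was filtered out of the sums. The library numbers in the cell names could not be tied to the replicate numbers in the labels, so the sex of each library was taken from the deposited table.

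The 9 genes, the gene lists and the tests were chosen with earlier results of these data known. Deposited counts were summed per library and cell population, and sums of fewer than 20 cells were left out of the fits of single clusters and of the correlations. The sums were tested with edgeR 4.0.16 (R 4.3.3, filterByExpr, TMM, robust quasi-likelihood, Benjamini-Hochberg adjustment over all genes tested, called at an adjusted p of 0.05), male minus female. Comparisons of cells with and without a UMI of a gene used cells thinned to 3000 UMIs, with library as a block and the choosing gene not tested. Shares of cells used thinning to 1000 UMIs and exact two-sided permutation tests in SciPy 1.17.1. Levels are CPM, and a mean over the other clusters weights clusters equally. Intervals and floors cover counting error only. Only some of the fits were run on simulated data with known fold changes. The outcome of those runs is not reported here, so they do not vouch for any single fit.

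The genes named are the 9 in every comparison, up to 4 genes per list with the smallest p, the 3 genes closest to each of the 9 by Pearson correlation (genes averaging 5 CPM or more), and, where cells were split by a UMI, up to 8 called genes per direction with the largest change among genes averaging 20 CPM or more that moved 1 way in all libraries. The values of 1 gene that the rule adds to the Klrg1 comparison are not reported here. The comparison of Fcer1g-positive cells was added after the data were seen. In counts over a list, the genes said to rise or fall are the called ones. Alternatives were DESeq2 1.42.0, limma-voom (limma 3.58.1), other filters and scalings, unthinned counts, and leaving out each library, shared barcodes, cells of high UMI count or clusters 6 and 10.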

Additional observations from a re-analysis of the deposited data

Results flagged for a closer look

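Of 27 groups of libraries looked at for a single library far from the rest, 3 had one, and chance marks about 1 in 20 such groups. All were in the comparison of Ncr1-positive with Ncr1-negative cells of cluster 2, as log2 ratios of CPM + 1 per library. Klrc1 was at −7.25 in male library 4, where its level was 0 CPM in the positive cells and 151 CPM in the negative cells. In male library 3, Klrk1 was at −1.02 and Klra4 at −2.36, both below the other 4 libraries.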

How the results depend on the processing

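No paired analysis was possible because, for pairs of a male and a female library, the library numbers in the cell names cannot be tied to the replicate numbers of the labels. The fits with library as a block pair sums of the same library. Precision is limited by 3 libraries per sex, by few cells with Ncr1 or Klra4, and by 22 UMIs of Klrg1 in cluster 2. The Ncr1 comparison had no fit without female library 2, which held no positive cell. Counting each reported single-gene value under each alternative run, 1101 kept direction and side of the threshold, 48 lost the call, 18 gained it and 20 changed sign. The causes were not tested.

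DESeq2 gave 185 called genes between the sexes over all cells (12 with edgeR) and 127 outside cluster 2 (11 with edgeR), with none of the 9 among them. It gave 278 for Klrg1-positive cells (426 with edgeR, and 1321 with unthinned counts or 210 within cluster 1), 126 for Ncr1-positive cells (223, unthinned 496) and 108 for Fcer1g-positive cells (278, unthinned 665). Of the 9 genes, DESeq2 called 0 in Klrg1-positive cells, and 2 were called there without clusters 6 and 10 (Klrk1 and Klrd1). With no filter on low counts, 66 genes were called between the sexes in cluster 2 and 74 in the test of the sex difference in cluster 2 against other cells, where 1 of the 9, Klra4, was then called. In the ratios of cluster 2 over the other clusters, Klrd1 moved to −0.10 without clusters 6 and 10 and Klrc1 to −1.73 with counts pooled over libraries, from −0.37 and −1.61.

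Leaving out 1 library at a time, the genes called between the sexes in cluster 2 ranged from 12 (without male library 1) to 47 (without female library 6), with 21 without male library 3 and 15 without female library 5, and the called among the 9 from 0 to 3. In the test of the difference between cluster 2 and other cells they ranged from 12 to 42 (without male library 4; 29 without female library 6), with 0 to 1 of the 9, Klra4 being called without female library 5. Over the other 10 clusters they ranged from 217 (without female library 5) to 1215 (without female library 6), with 309 without male library 1, and the called pairs from 0 (without female library 5) to 9 (without female library 6). Among the 9, the called ranged from 0 to 2 in Klrg1-positive cells and from 3 (without female library 6) to 5 in Ncr1-positive cells.

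Sign changes concerned values that were not called, except Klrk1 in Klrg1-positive cells, at −0.046 with unthinned counts. Between the sexes over all cells, Ncr1 was at 0.245 under limma-voom and Fcer1g at −0.327 with equal cluster proportions. Leaving out libraries moved Fcer1g from −0.252 to 0.477 and Tyrobp from −0.736 to 0.332. Outside cluster 2, Fcer1g was at 0.011 with equal proportions and from −0.629 to 0.137 without single libraries, and Klra4 from −1.592 to 0.275. In cluster 2, Klrd1 was at 0.016 with no filter and from −0.095 to 0.051 without single libraries. In the test of the difference between cluster 2 and other cells, Klrc1 ranged from −0.005 to 0.095 and Fcer1g from −0.621 to 0.152. In Klrg1-positive cells Klrc1 was at −0.14 within cluster 1 and Fcer1g at 0.131 unthinned, and in Ncr1-positive cells Klrc1 ranged from −0.176 to 0.575.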

Other observations

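Transcription factor genes differed between cells with and without a UMI of Ncr1, Fcer1g or Klrg1. A UMI may also come from free RNA, whose share was not estimated. Ikzf2, the Helios gene, averaged 201 ± 202 CPM in Ncr1-positive and 742 ± 50 CPM in Ncr1-negative cells of cluster 2 (−2.74 on the log2 scale, SE 0.36, lower in 5 of 5 libraries, called by edgeR's quasi-likelihood test). In Fcer1g-positive cells of cluster 2 it averaged 771 ± 52 CPM, and 670 ± 56 CPM in Fcer1g-negative cells (0.17, SE 0.05, higher in 6 of 6 libraries, called). Outside cluster 2, Ikzf2 was lower in Klrg1-positive than in Klrg1-negative cells, with 64.2 ± 39.8 against 106 ± 28 CPM (−0.86, lower in 6 of 6 libraries, called). Irf8, an interferon regulatory factor gene, was at 692 ± 451 CPM in Ncr1-positive and 53.9 ± 13.8 CPM in Ncr1-negative cells, and at 83.8 ± 49.8 CPM in Fcer1g-positive and 39.0 ± 10.1 CPM in Fcer1g-negative cells, both called. Of the 14 factor genes tested in cluster 2, 2 rose and 4 fell in Ncr1-positive cells and 5 rose and 3 fell in Fcer1g-positive cells. Outside cluster 2, 6 of 16 rose and 2 fell in Klrg1-positive cells, with Eomes (0.70) and Rora (0.79) among those that rose and Tcf7 (−1.27) the other that fell.

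Memory and T cell receptor genes also differed. In Ncr1-positive cells 7 of 16 effector and memory genes were called lower, among them Il7r (−1.85), S1pr1 (−2.76) and Ccr7 (−3.27, on 1 UMI in the positive cells). None was called higher, although 2 lay above 0, and the median of the 16 was −1.01 beside −0.40 over all genes tested. In Fcer1g-positive cells 2 of 16 rose and 7 fell, with a median of −0.10 beside −0.01. Of the 10 T cell receptor and CD8 genes tested, 3 were called lower in Ncr1-positive cells (Cd3d, Cd3g and Cd27) and none higher, although 1 lay above 0. Among surface genes, Cd7 (0.79) and Cd160 (0.76) rose in Fcer1g-positive cells, each in 6 of 6 libraries.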
